A study of Mus musculus with 38 samples.

Results

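The transcripts described here are 7 genes of the cytotoxic granule, the secretory lysosome with which killer lymphocytes kill their targets: Srgn, Gzma, Gzmb, Gzmc, Prf1, Nkg7 and Ctsw. They were taken by symbol from 23700 gene entries in each expression table, and each symbol had 1 entry. The 14 RNA libraries came from mouse CD4+ helper T cells and form 13 groups, 12 of them with a single library. All cells were C57BL/6J naive CD4+ T cells, sorted by FACS from spleen and lymph nodes and polarised in vitro to the Th1 lineage (with IL-12) or the Th2 lineage (with IL-4). Without a vector, on day 7 and after 2 h of restimulation, there were 2 WT Th1 libraries and 1 library of each of 4 others: the Th1 knockouts STAT4 KO and T-bet KO, WT Th2 and the Th2 knockout STAT6 KO. With a retroviral vector there was 1 library per combination: a control or a T-bet vector in Th1 cells, each in WT and STAT4 KO, and a control or a GATA3 vector in Th2 cells, each in WT and STAT6 KO. The vector cultures are labelled day 5, but another label gives 7 days and 2 h of restimulation for the Th1 ones, and for the Th2 ones restimulation is not stated. The alleles are labelled STAT4 tm1, Tbet tm1 and Stat6 tm1, and the Th1 control vector carries a truncated human NGFR marker. Whether transduced cells were selected is not stated either, so a vector library may hold cells without the vector.

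Granzymes are serine proteases that enter a target cell through pores made by perforin and start its death. Inside the granule they are packed on serglycin, a proteoglycan, and some helper T cells and all killer T and NK cells make such granules. In T cells the genes are controlled by T-box factors (T-bet and eomesodermin), RUNX3 and STAT proteins downstream of cytokines. STAT4 carries the IL-12 signal and STAT6 the IL-4 signal, while T-bet (gene Tbx21) and GATA3 define the Th1 and Th2 lineages.

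In mm9, Gzmb (chromosome 14, 56877695 to 56881097) and Gzmc (chromosome 14, 56850238 to 56853493) lie in the same granzyme cluster. Srgn (chromosome 10, 61957176 to 61970503) and Prf1 (chromosome 10, 60760584 to 60767011) share a chromosome. Gzma lies on chromosome 13 (113884035 to 113891189), Nkg7 on chromosome 7 (50692508 to 50693616) and Ctsw on chromosome 19 (5465240 to 5468498). Promoters from 250 bases before to 50 bases after the start site were found in the RefSeq table (GRCm38.p6) for 6 of the 7 genes. Those of 4 genes are printed here, because the levels of Nkg7 and of the 3 granzymes are set side by side below. Capitals mark matches, on either strand, to 7 short patterns. For T-box factors these were the half-site GGTGTGA and its core, GGTGTG. For RUNX factors the pattern was TGTGGT. STAT patterns were TTCNNNGAA and the wider TTCNNNNGAA. For GATA factors AGATAA was used and for AP-1 the pattern TGANTCA.
Nkg7 (chr7:43436888-43437187, plus strand): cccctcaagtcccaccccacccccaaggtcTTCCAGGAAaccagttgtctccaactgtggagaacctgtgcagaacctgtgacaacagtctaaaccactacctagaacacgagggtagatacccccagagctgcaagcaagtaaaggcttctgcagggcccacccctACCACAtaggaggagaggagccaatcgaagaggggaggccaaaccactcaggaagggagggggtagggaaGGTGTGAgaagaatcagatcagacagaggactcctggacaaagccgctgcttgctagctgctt
Gzma (chr13:113100932-113101231, minus strand): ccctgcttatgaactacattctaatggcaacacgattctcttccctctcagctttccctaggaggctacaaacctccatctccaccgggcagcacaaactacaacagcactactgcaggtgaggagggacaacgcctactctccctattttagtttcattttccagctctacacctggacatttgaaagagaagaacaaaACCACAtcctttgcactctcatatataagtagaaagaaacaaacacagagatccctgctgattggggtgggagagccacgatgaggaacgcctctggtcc
Gzmb (chr14:56262285-56262584, minus strand): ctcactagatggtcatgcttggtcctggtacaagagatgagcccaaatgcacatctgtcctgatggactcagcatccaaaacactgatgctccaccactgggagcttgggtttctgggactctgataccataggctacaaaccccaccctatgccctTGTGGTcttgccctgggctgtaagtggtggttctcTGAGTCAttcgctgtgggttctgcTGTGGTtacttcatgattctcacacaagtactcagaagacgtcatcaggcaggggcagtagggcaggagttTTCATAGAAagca
Gzmc (chr14:56234608-56234907, minus strand): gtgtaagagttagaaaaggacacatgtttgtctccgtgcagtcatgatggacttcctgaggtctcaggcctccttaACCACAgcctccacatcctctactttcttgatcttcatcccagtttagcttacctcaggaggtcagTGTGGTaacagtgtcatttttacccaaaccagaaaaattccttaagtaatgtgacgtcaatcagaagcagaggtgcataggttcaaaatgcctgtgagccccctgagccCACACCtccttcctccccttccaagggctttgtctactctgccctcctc

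GGTGTGA was found in the Nkg7 promoter alone among the members, 13 bases before the start site, and in 3.98% of all 32851 promoters of this length. Its core GGTGTG, which the same match contains, was also in the Gzmc promoter and in 19% of all promoters. TTCNNNGAA was in the Nkg7 and Gzmb promoters and in 8.3% of all. TGTGGT was in at least 1 promoter of each of the 6 matched genes, against 16.8% of all. TGANTCA was in the Gzmb promoter and in 7.81% of all, while TTCNNNNGAA (6.95% of all) and AGATAA (11.2% of all) were in none of them. These are matches of letters and no measurement of binding.

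Expression is given in FPKM, fragments scaled to transcript length and library depth, so levels of different genes can be compared. Each library held an estimated 21900000 to 38530000 fragments in genes. WT Th1 replicate 2 and T-bet KO stood apart. Over the tested genes they correlated at 0.976 with each other but at 0.676 to 0.801 with the other 12 libraries, which correlated at 0.856 to 0.990 among themselves, so results on them are given with and without a model term for the pair. Tbx21 was 4.18 FPKM in T-bet KO against 88.4 and 152.9 in WT Th1, and T-bet vector cells had 245 (WT) and 137 (STAT4 KO) against 61.0 and 35.1 in control vector cells. Gata3 was 589 (WT) and 377 (STAT6 KO) with its vector against 95.7 and 29.7. Stat4 was 17.5 in STAT4 KO without a vector against 60.8 and 15.1 in the WT Th1 libraries, so replicate 2 lay below the knockout, and Stat6 was 34.6 in STAT6 KO against 35.6 in WT Th2. In vector cultures Stat4 was 7.57 (control) and 6.71 (T-bet) in STAT4 KO against 41.0 and 37.1 in WT Th1. Stat6 was 36.1 (control) and 23.3 (GATA3) in STAT6 KO against 65.9 and 48.0 in WT Th2. A transcript that lacks the deleted part still counts, so the Stat levels alone do not check the labels, though they were lower in each vector pair.

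The markers of the labelled cell type were present in every library: Cd4, Cd3e, Cd3g and Cd5 summed to 405 to 781 FPKM. The 5 NK cell markers summed to at most 0.206 FPKM, and none of them reached 1 FPKM in any library. Of the CD8 T cell markers, Cd8a was at most 0.210 and Cd8b1 was 1.80 to 5.65 FPKM. The granule transcripts described below were measured in libraries where the defining receptor of NK cells, Ncr1, and the CD8 alpha chain were at or near 0. Cd8b1, the other CD8 marker, was at 1 FPKM or more in all 14. Whether other cells contributed was not tested. Nothing in the labels ties the libraries to separate cultures or mice. Since 12 groups hold 1 library, the p-values below measure departures from an additive model and the gap between the WT Th1 replicates. Either may be technical. These are bulk libraries, in which fewer cells making a transcript and less transcript per cell cannot be told apart.

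**Figure D1:**
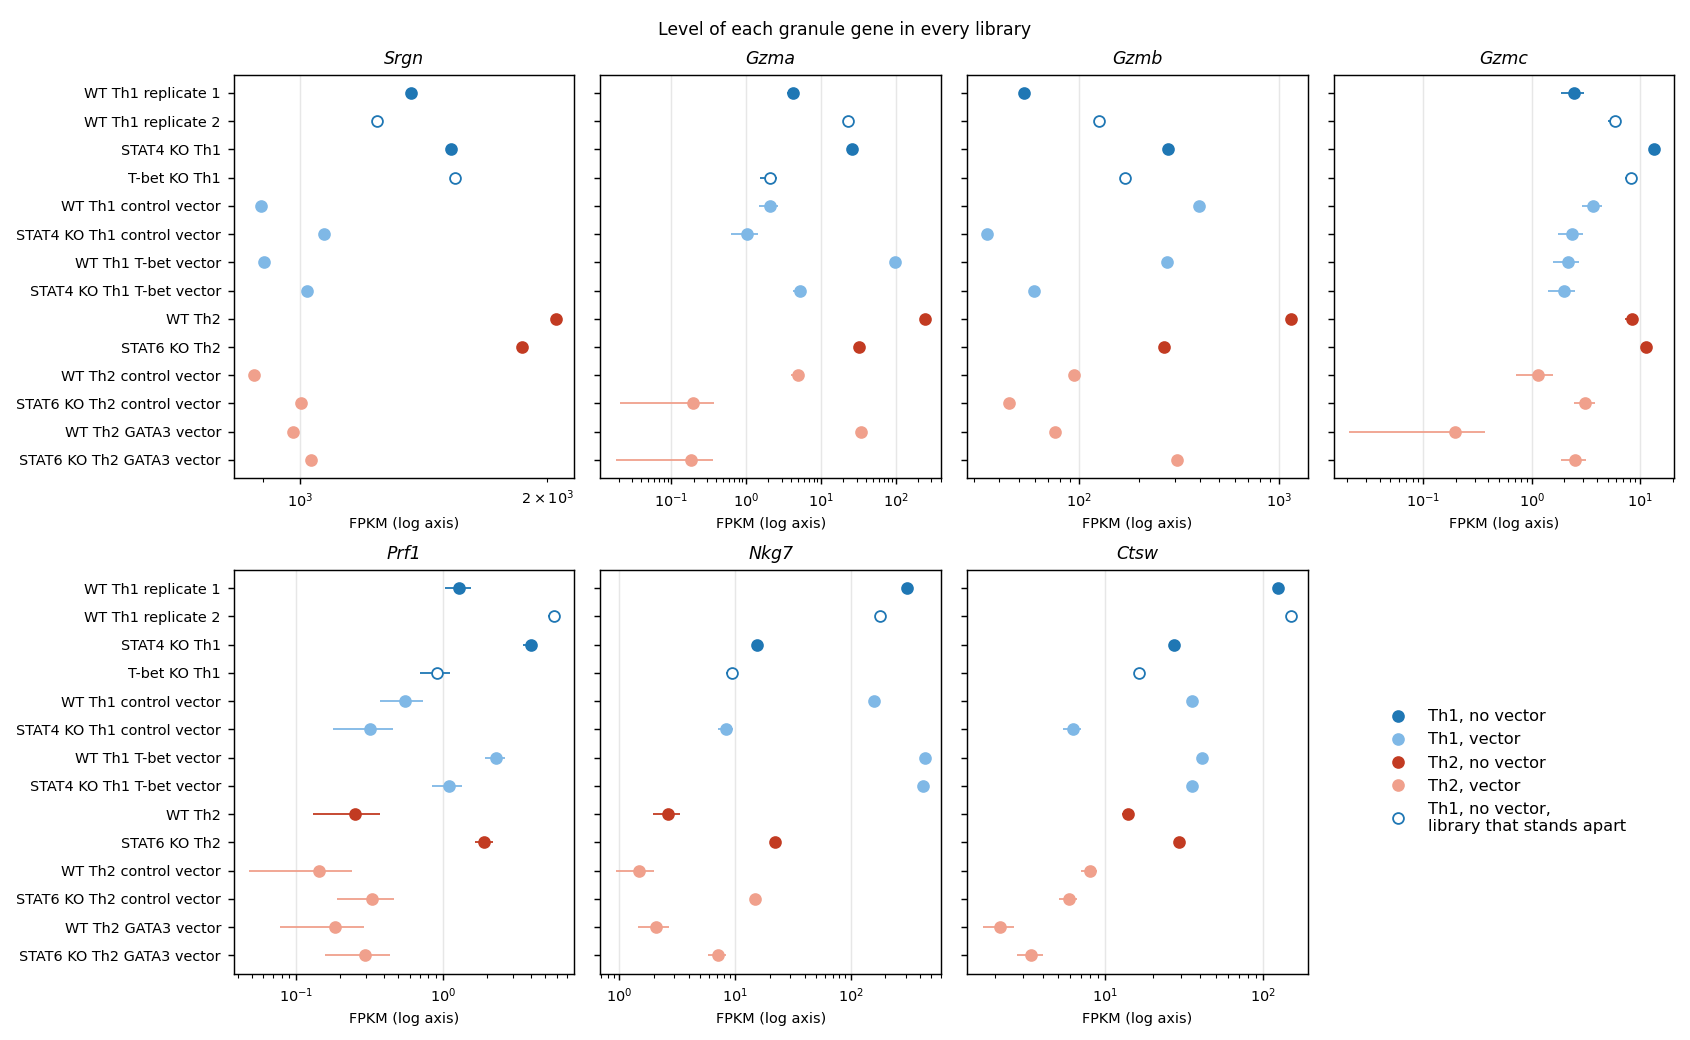
Level of each granule gene (FPKM, log axis) in each of the 14 libraries. Bars are the counting intervals listed by Cufflinks, cut at the left where they approach 0, and open symbols are WT Th1 replicate 2 and T-bet KO. Srgn spans 878 to 2049 FPKM, whereas Gzma spans 0.183 to 244 FPKM.

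Srgn, the storage proteoglycan, was by far the most abundant and the steadiest transcript, at 878 to 2049 FPKM with a median of 1051. It was 1365 and 1242 in the WT Th1 libraries, 1528 in STAT4 KO, 1542 in T-bet KO, 2049 in WT Th2 and 1863 in STAT6 KO. All 8 vector libraries lay between 878 and 1069.8 FPKM, below all 6 libraries without a vector. Its highest level was 2.33 times its lowest.

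Gzmb, which cleaves after aspartate and activates caspases, was the most abundant granzyme in every library, with 68.5% to 99.1% of the summed FPKM of Gzma, Gzmb and Gzmc. Its levels ranged from 34.7 to 1149.6 FPKM with a median of 147. Only 2 of the 13 neighbouring pairs in its ranking had overlapping counting intervals, so counting error was small beside the differences between libraries. Gzma, a tryptase that kills without caspases, ranged from 0.183 to 244 FPKM with a median of 5.08. The lowest Gzma values, in both STAT6 KO vector libraries, rested on an estimated 5 and 4 fragments. Gzmc, a granzyme of the Gzmb cluster, ranged from 0.197 to 13.5 FPKM with a median of 2.81.

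Reads of granzymes can be shared within the family. The longest transcript of each member was compared with protein-coding transcripts only, so pseudogenes and the rest of the genome were not searched. None of the 835 windows of 100 bases, the read length, in the Gzmc transcript was identical to one in another transcript, but 27 (3.23%) matched Gzmd, Gzmf or Gzmg within 2 mismatches. No window of the other 6 members was identical to one in another gene's protein-coding transcript. None matched another member or another granzyme within 2 mismatches, and mismatches were not sought in other genes. Gzmc values may therefore hold some reads of its cluster neighbours, which were themselves low.

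Prf1, the pore-forming protein that granzymes need to enter a target, was scarce: 0.144 to 5.71 FPKM with a median of 0.733. Its values rested on an estimated 9 to 557 fragments, and 10 of the 13 neighbouring pairs in its ranking overlapped. Gzmb exceeded Prf1 between 21.9-fold (WT Th1 replicate 2) and 4561-fold (WT Th2). WT Th2, the library with the most Gzmb and Gzma, had only 0.252 FPKM of Prf1, on an estimated 17 fragments.

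Nkg7, a membrane protein of granules that takes part in their release, and Ctsw, the cysteine protease cathepsin W of killer lymphocytes, were highest in Th1 cells. Nkg7 ranged from 1.47 to 436 FPKM and Ctsw from 2.15 to 149.9 FPKM. Nkg7 was 306 and 179 in the WT Th1 libraries, 158 with the control vector and 436 with the T-bet vector. Ctsw was 125 and 149.9, then 35.7 and 40.8 FPKM in the same order. Across the 14 libraries, log2(FPKM + 1) of these genes correlated at 0.80, the highest value among the 21 pairs of members, while Nkg7 and Gzmb were at -0.11. These correlations share libraries, depth and the split between Th1 and Th2 and are given as descriptions.

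In Th2 compared with Th1 cells, Nkg7 and Ctsw fell, and Gzma and Gzmb did not follow them. Nkg7 was 2.64 FPKM in WT Th2, 1.47 with the control vector and 2.09 with the GATA3 vector, each far below the 158 to 436 of WT Th1 cells. Ctsw was 13.9, 7.95 and 2.15 FPKM in these Th2 libraries, against 35.7 to 149.9 in WT Th1 cells. The WT groups of the lineages thus did not overlap for either gene. For this and other statements that sets of libraries lay apart, the share of all tested genes doing so was not counted.

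An additive limma fit over all 14 libraries and 11121 genes on log2(FPKM + 1), with terms for lineage, vector culture, each knockout and each vector, called 357 genes for lineage at an adjusted p under 0.05 (3.21%). Among them were 2 of the 7 members, both lower in Th2: Nkg7 (-5.31 ± 0.73 SE, adjusted p = 0.00796) and Ctsw (-2.42 ± 0.46, adjusted p = 0.0280). The median estimate was -0.12 over the members and -0.04 over all tested genes. With a term for the libraries that stood apart, 760 genes were called (6.83%), and Nkg7 kept its call (-5.30, adjusted p = 0.0250) but Ctsw lost it (-2.24, adjusted p = 0.0526). Nkg7 also lost its call without the WT Th2 library (-5.03, adjusted p = 0.0741, 0.984% of genes called). Ctsw was called in 7 of the 14 fits that left out 1 library. It was not called without WT Th1 replicate 1, WT Th1 control vector, WT Th2 or any STAT6 KO or GATA3 vector library, where its adjusted p was 0.0539 to 0.207. For the 6 of these besides WT Th2, the share of genes called was 1.79% (WT Th1 replicate 1 left out), 1.62% (WT Th1 control vector), 1.9% (STAT6 KO, no vector), 1.86% (STAT6 KO, control vector), 1.97% (WT, GATA3 vector) and 2% (STAT6 KO, GATA3 vector). In the 7 fits that called Ctsw it was 8.62% (WT Th1 replicate 2 left out), 4.17% (T-bet KO), 2.21% (STAT4 KO, no vector), 1.7% (STAT4 KO, control vector), 2.2% (each T-bet vector library) and 1.26% (WT Th2 control vector).

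Gzmb differed between the lineages in opposite directions in the cultures with and without a vector. Without a vector, Gzmb was 1149.6 FPKM in WT Th2 against 53.1 and 125 in WT Th1, a log2 difference of 4.41 and 3.19. With the control vector it was 94.0 in Th2 against 395 in Th1, a difference of -2.06. So the library with most Gzmb was of Th2 cells without a vector and of Th1 cells with the control vector.

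Gzma was 244 FPKM in WT Th2 against 4.27 and 23.3 in WT Th1, and 4.96 against 2.09 with the control vector. Its differences were 5.53 and 3.33, then 0.95, all toward Th2. The fitted estimate for lineage was 2.83 ± 1.16 for Gzma (adjusted p = 0.229) and 0.65 ± 1.28 for Gzmb (adjusted p = 0.770), neither of which passed. Prf1 had -1.06 ± 0.46 (adjusted p = 0.251) and Srgn 0.33 ± 0.23 (adjusted p = 0.429).

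WT Th2 also had 10.2 FPKM of Cpa3, a mast cell and basophil protease, against at most 0.04 in the 4 Th1 libraries without a vector. Of the 6 mast cell and basophil markers 1 reached 1 FPKM there. The summed level in that library was 10.2 FPKM, while Fcer1a was at 0 and Ms4a2 was at most 0.0329 FPKM in every library. Cd8b1 had its highest level, 5.65 FPKM, in the same library, where Cd8a was not above 0.210. Whether other cells had a part in the Gzma and Gzmb levels of WT Th2 was not tested.

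Between single libraries without a vector, 5 of the 7 members were at least 2-fold apart between WT Th2 and WT Th1 replicate 1, 3 higher and 2 lower, against 14.5% of tested genes. All 2-fold counts are on the FPKM + 1 scale, which leaves out larger ratios of low genes. With the control vector 4 were at least 2-fold lower in Th2 and none higher, against 6.47% of tested genes. The members above and below were the same in the comparison with replicate 2 except for Gzmc, at 0.45, and Prf1, at -2.42, but 40.8% of all genes were 2-fold apart there.

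**Figure D2:**
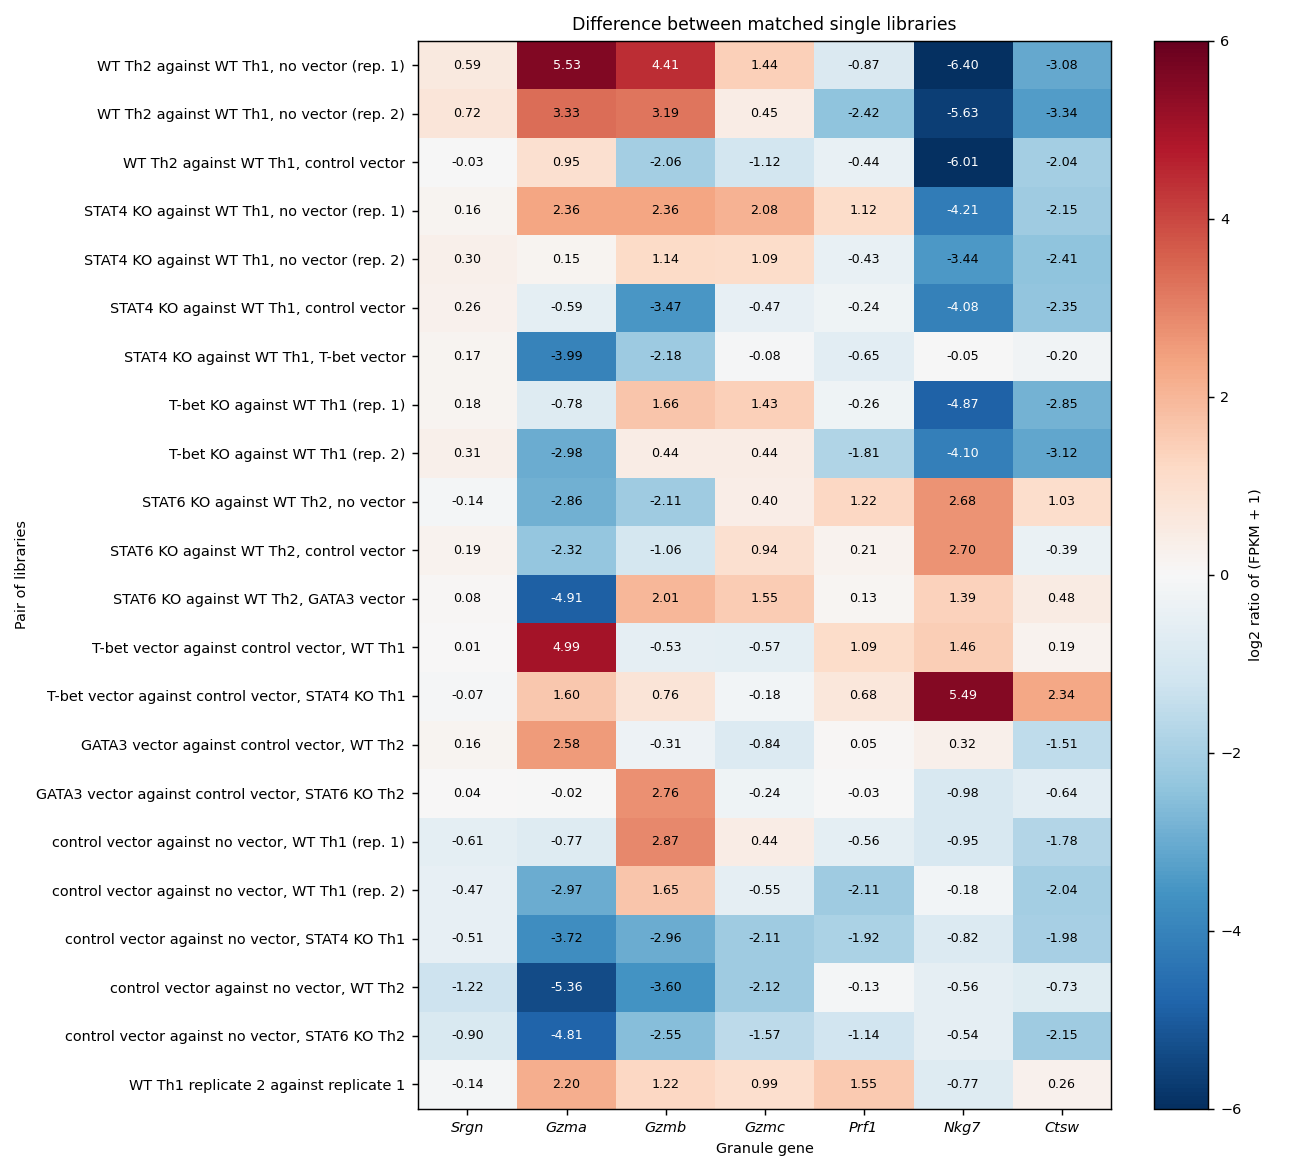
Log2 ratio of (FPKM + 1) for each member (columns) between matched single libraries (rows). Red is higher in the first-named library and blue is lower. Nkg7 is -5.63 to -6.40 in every Th2 against Th1 row, whereas Gzmb runs from 4.41 to -2.06 in the same rows.

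Loss of STAT4 went with low Nkg7 and Ctsw in Th1 cells wherever T-bet was not supplied. Nkg7 was 15.6 FPKM in STAT4 KO cells against 306 and 179 in WT without a vector, and 8.41 against 158 in control vector cells. Ctsw was 27.4 against 125 and 149.9, and 6.19 against 35.7 FPKM. The knockout libraries lay below all their WT counterparts for each of these genes. Between single libraries, 6 of the 7 members were at least 2-fold apart from WT Th1 replicate 1 without a vector (8% of tested genes), 4 of them higher in the knockout. Against replicate 2 the count was 4, with 2 higher (Gzmb and Gzmc) and 2 lower (Nkg7 and Ctsw), where 35.4% of genes were 2-fold apart, and Prf1 went from 1.12 to -0.43. With the control vector 3 were, all lower (4.24% of genes), and with the T-bet vector 2 were, both lower (3.61%).

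With the T-bet vector the genotypes lay close together: Nkg7 was 422 FPKM in STAT4 KO against 436 in WT, and Ctsw was 35.4 against 40.8. The log2 differences between genotypes were -0.05 for Nkg7 and -0.20 for Ctsw, against -4.08 and -2.35 with the control vector. Within STAT4 KO cells, the T-bet vector library had 5.49 (Nkg7) and 2.34 (Ctsw) more than the control vector library on the log2 scale. Within WT cells the same differences were 1.46 and 0.19.

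**Figure D3:**
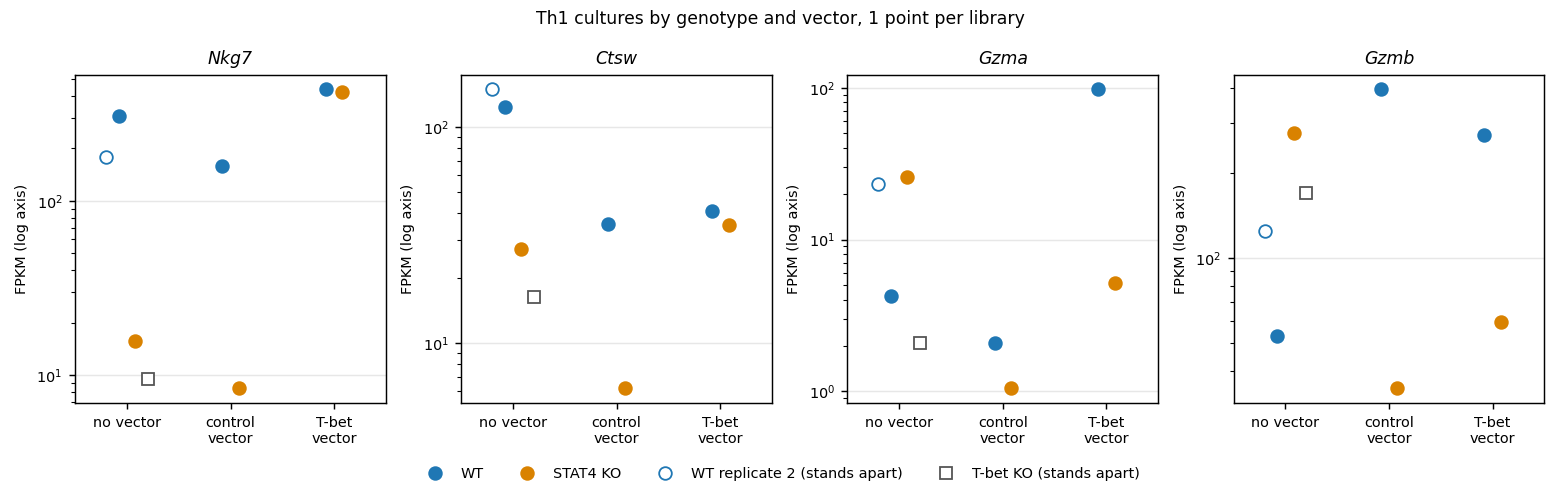
FPKM (log axis) of Nkg7, Ctsw, Gzma and Gzmb in the Th1 libraries by vector, with WT in blue, STAT4 KO in orange and T-bet KO as an open square. For Nkg7 the STAT4 KO point lies at 8.41 with the control vector and at 422 with the T-bet vector, beside WT at 436 FPKM, while the Gzmb points stay apart at 59.4 and 273.

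The additive fit, in which the STAT4 term averages over the vector cultures, called 81 genes for STAT4 KO (0.728%) and none of the 7 members, of which 2 had an unadjusted p under 0.05. These were Nkg7 (-2.78 ± 0.66, adjusted p = 0.107) and Ctsw (-1.71 ± 0.41, adjusted p = 0.109). With the term for the libraries that stood apart 388 genes were called (3.49%) and again no member, with adjusted p = 0.0983 and 0.102. Leaving out either T-bet vector library gave both genes a call, at -3.94 for Nkg7 (adjusted p = 0.00632 without the WT and 0.00613 without the STAT4 KO library) and -2.35 for Ctsw (0.0473 and 0.0469), with 21 genes called in all (0.189%).

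The test of whether the effect of STAT4 loss differed with the T-bet vector was the interaction term of a second limma fit. This term sets the STAT4 effect with the T-bet vector against that pooled over cultures without a vector and with the control vector. For Nkg7 it was 3.90 ± 0.51 (adjusted p = 0.539) and for Ctsw 2.15 ± 0.63 (adjusted p = 0.999). It called 1 gene of 11121 (0.00899%) and 0 members, of which 3 had an unadjusted p under 0.05. With the term for the libraries that stood apart Nkg7 had 4.10 ± 0.26 (adjusted p = 0.129), and 2 genes were called (0.018%). Without WT Th1 replicate 2 it had the same estimate with adjusted p = 0.0215, 1 of 4 genes called (0.037%). The interaction was therefore called only when that library was left out, among the fits that omitted 1 library.

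The effects of this second fit in each setting were read out after the data had been seen. STAT4 KO without the T-bet vector gave Nkg7 -3.94 ± 0.28 (adjusted p = 0.00786, 18 genes called, 0.162%) and Ctsw -2.35 ± 0.34 (adjusted p = 0.0999). The T-bet vector in STAT4 KO cells gave Nkg7 5.39 ± 0.38 (adjusted p = 0.0169, 2 genes called, 0.018%) and Ctsw 2.21 ± 0.48 (adjusted p = 1.0). STAT4 KO with the T-bet vector gave Nkg7 -0.05 ± 0.42 (adjusted p = 1, 1 gene called, 0.00899%). Nkg7 thus fell without STAT4 and was higher with T-bet in STAT4 KO cells, with 4 residual degrees of freedom behind these tests.

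Gzmb behaved differently from Nkg7 with STAT4 and T-bet. In STAT4 KO cells it was 277 FPKM without a vector, above the 53.1 and 125 of WT, but 34.7 against 395 in control vector and 59.4 against 273 in T-bet vector cells. The log2 differences were 2.36 and 1.14, then -3.47 and -2.18. Gzmb in STAT4 KO cells with T-bet stayed below both WT vector libraries, unlike Nkg7. The fitted STAT4 estimate was -0.82 ± 1.17 (adjusted p = 0.720), and its interaction with the T-bet vector was -1.93 ± 2.47 (adjusted p = 0.999). The STAT4 effect it is set against pools cultures without a vector and with the control vector. For Gzmb these had opposite signs and pooled to -0.25 ± 1.35. The interaction therefore does not compare the T-bet vector with the control vector alone.

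Gzma was highest among Th1 libraries in WT cells with the T-bet vector, at 97.4 FPKM against 2.09 in control vector cells, a log2 difference of 4.99. In STAT4 KO cells the T-bet vector library had 5.20 FPKM against 1.05, a difference of 1.60. So the genotypes differed by -3.99 with the T-bet vector and by -0.59 with the control vector. Without a vector STAT4 KO had 26.0 FPKM, next to 23.3 in WT replicate 2 and above 4.27 in replicate 1. The interaction was -4.64 ± 1.71 for Gzma (adjusted p = 0.999).

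With T-bet supplied, Prf1 was at 2.30 FPKM (WT) and 1.11 (STAT4 KO), against 0.552 and 0.318 in control vector cells. Gzmc was 2.15 and 1.97 against 3.67 and 2.36 FPKM in the same libraries. Srgn was 903 and 1019 against 895 and 1069.8. In plain FPKM Prf1 was thus 4.17 times as high with T-bet in WT and 3.48 times in STAT4 KO cells, though at these low levels only the WT difference reaches 2-fold on the log2(FPKM + 1) scale (1.09 and 0.68). Gzmc and Srgn differed by less than 2-fold in both genotypes.

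For the T-bet vector, averaged over both genotypes, the additive fit called no gene at all (0%) and 0 members, with 150 genes and 2 members at an unadjusted p under 0.05. The estimates were 4.01 ± 1.27 for Gzma, 3.39 ± 0.80 for Nkg7 and 1.10 ± 0.50 for Ctsw, each with adjusted p = 1.0. The fit has 1 vector culture term shared by Th1 and Th2, so these are not averages of the T-bet against control vector pairs. For Gzmb the estimate was 0.97 ± 1.41, while the pairs differed by -0.53 (WT) and 0.76 (STAT4 KO). With the term for the libraries that stood apart 2 genes were called (0.018%), none of them a member. Tbx21 was among these 2 (1.91 ± 0.13, adjusted p = 0.0350). Without the WT T-bet vector library, which leaves the STAT4 KO comparison, Nkg7 was called at 5.39 (adjusted p = 0.0182, 3 genes called, 0.027%). Between single libraries 3 members were at least 2-fold apart in WT cells against 0.575% of tested genes, all higher with T-bet: Gzma, Nkg7 and Prf1. In STAT4 KO cells 3 members were, against 1.5% of genes: Gzma, Nkg7 and Ctsw, again all higher.

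In T-bet KO cells Nkg7 and Ctsw were low as well. Nkg7 was 9.50 FPKM against 306 and 179 in WT Th1, and Ctsw was 16.4 against 125 and 149.9. The knockout library resembled replicate 2 most across genes, and against that library Nkg7 differed by -4.10, Ctsw by -3.12, Gzma by -2.98 and Prf1 by -1.81 on the log2 scale. The fit with the term gives these same estimates, because it sets T-bet KO against replicate 2 alone. Gzmb was 170 FPKM against 53.1 and 125, Gzmc was 8.24 against 2.44 and 5.81, and Srgn was 1542 against 1365 and 1242, so these were not lower.

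The fit called 2 genes for T-bet KO (0.018%) and 0 members, with 1617 genes and 2 members at an unadjusted p under 0.05. The estimates were -4.08 ± 1.0 for Nkg7 and -2.69 ± 0.62 for Ctsw, both with adjusted p = 0.315. With the term for the libraries that stood apart 98 genes were called (0.881%) and no member, with adjusted p = 0.296 for Nkg7 and 0.189 for Ctsw. Without WT Th1 replicate 2 both were called, at -4.07 (adjusted p = 0.0169) and -2.45 (0.0146), but so were 5154 genes (47.7%). Without the WT or the STAT4 KO T-bet vector library Nkg7 alone was called, at -4.50 in each case (adjusted p = 0.0288, 4 genes called or 0.036%, and 0.0374, 3 genes or 0.027%). Against replicate 2, 4 members were at least 2-fold lower and 0 higher, with 3.69% of genes 2-fold apart. Against replicate 1, 2 members were lower and 2 higher (Gzmb and Gzmc), with 28.3% of genes 2-fold apart.

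Loss of STAT6 in Th2 cells went with more Nkg7 and less Gzma. Nkg7 was 22.3 FPKM in STAT6 KO against 2.64 in WT Th2 without a vector. In control vector cells it was 15.0 against 1.47, and in GATA3 vector cells 7.11 against 2.09. All 3 STAT6 KO libraries were above all 3 WT Th2 libraries, but below every WT Th1 library. How many of all tested genes separate these libraries in this way was not counted. Gzma was 32.7 against 244, 0.197 against 4.96 and 0.183 against 34.5 FPKM, lower in the knockout in each pair. Its log2 differences were -2.86, -2.32 and -4.91.

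Gzmb was lower in STAT6 KO without a vector (265 against 1149.6 FPKM) and with the control vector (44.4 against 94.0). With the GATA3 vector it was higher (307 against 75.4). Gzmc was higher in each STAT6 KO library, at 11.3 against 8.33, 3.13 against 1.14 and 2.49 against 0.197 FPKM, the last on an estimated 5 fragments. Ctsw was 29.4 against 13.9, 5.84 against 7.95 and 3.38 against 2.15, with no common direction.

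The fit called 107 genes for STAT6 KO (0.962%) and 0 members, with 1223 genes and 2 members at an unadjusted p under 0.05. With the term for the libraries that stood apart it called 301 genes (2.71%) and again no member. The 2 members at an unadjusted p under 0.05 without the term were Nkg7 (2.26 ± 0.70, adjusted p = 0.218) and Gzma (-3.36 ± 1.11, adjusted p = 0.259). The second fit, read out after the data had been seen, gave Nkg7 2.69 ± 0.30 in STAT6 KO without the GATA3 vector (adjusted p = 0.0346, 29 genes called, 0.261%). Its interaction with the GATA3 vector was -1.29 ± 0.52 (adjusted p = 1), and 0 genes were called there (0%), with 176 at an unadjusted p under 0.05, or 5 genes with the term (0.045%), again no member. In the additive fit Nkg7 was also called without either T-bet vector library (2.26, adjusted p = 0.0274 without the WT and 0.0269 without the STAT4 KO library), with 77 genes called in each (0.693%).

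Between single libraries the 2-fold count for STAT6 KO was 5 members without a vector (9.16% of genes), 3 with the control vector (5.43%) and 4 with the GATA3 vector (4.93%). Nkg7, Gzma and Gzmb were in all 3 counts, and only Gzmb changed its sign among them. The 3 comparisons use different libraries.

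No granule gene differed by 2-fold in the same direction with the GATA3 vector in both WT and STAT6 KO cells. Gzma was 34.5 FPKM with GATA3 against 4.96 with the control vector in WT cells, and 0.183 against 0.197 in STAT6 KO cells. Gzmb was 75.4 against 94.0 in WT cells and 307 against 44.4 in STAT6 KO cells. Ctsw was 2.15 against 7.95 in WT and 3.38 against 5.84 in STAT6 KO cells, lower in both.

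The fit called 117 genes for the GATA3 vector (1.05%) and none of the members, and no member had an unadjusted p under 0.05, against 953 genes. With the term 322 genes were called (2.9%) and no member. The largest member estimates were -0.91 ± 0.50 for Ctsw (adjusted p = 0.762) and -0.80 ± 0.54 for Gzmc (adjusted p = 0.888). Between single libraries 2 members were 2-fold apart in WT cells (4.49% of genes), Gzma higher and Ctsw lower, and 1 in STAT6 KO cells (5.18%), Gzmb higher.

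With GATA3, Mcpt8, a basophil protease whose gene lies near the granzyme cluster, was 59.2 FPKM in WT cells and 42.7 in STAT6 KO, and at most 0.09 elsewhere (estimate 5.63 ± 0.17, adjusted p = 1.80e-06). Cpa3 was 9.64 and 2.34 in these libraries. The 6 mast cell and basophil markers summed to 68.9 and 45.1 FPKM there, 2 of them at 1 FPKM or more, while Fcer1a was at 0 and Ms4a2 at most 0.0329. Their part in the Gzma and Gzmb levels of these libraries was not tested.

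**Figure D4:**
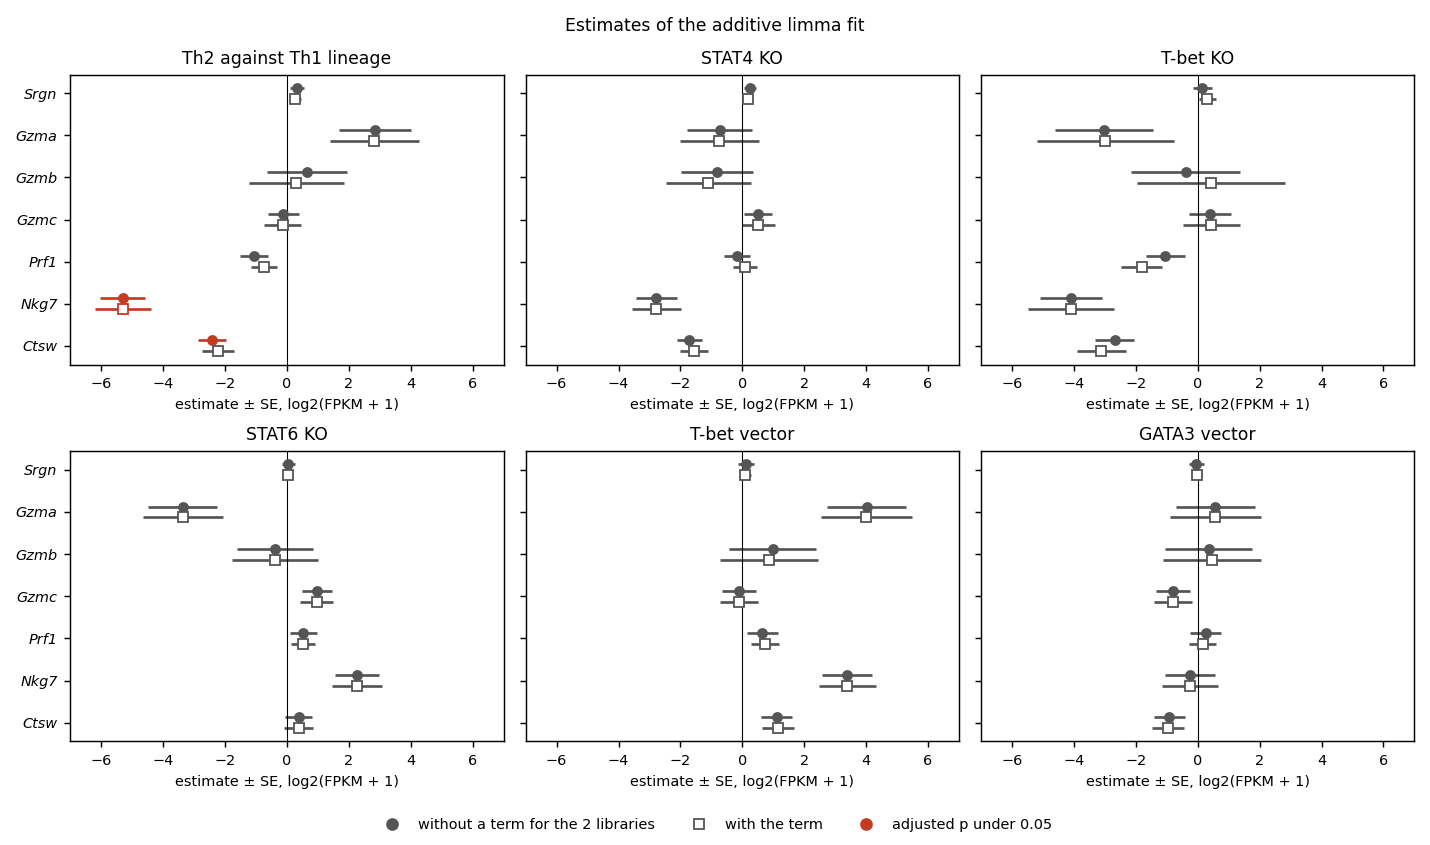
Estimates of the additive limma fit with their standard errors (log2 of FPKM + 1) for each member and contrast, without (circles) and with (squares) a term for the libraries that stood apart. Red marks an adjusted p under 0.05, which Nkg7 (both fits) and Ctsw (without the term) reached for lineage and no member reached in another panel.

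Cultures with the control vector had less of most granule transcripts than those without a vector, apart from Gzmb in WT Th1 cells and Gzmc there against replicate 1 (3.67 against 2.44 FPKM). In WT Th2 cells Gzma was 4.96 against 244 FPKM, Gzmb 94.0 against 1149.6, Gzmc 1.14 against 8.33 and Srgn 878 against 2049. In STAT4 KO Th1 and STAT6 KO Th2 cells Gzma, Gzmb, Gzmc, Prf1 and Ctsw were each at least 2-fold lower with the control vector. In WT Th1 cells Gzmb was 395 FPKM with the control vector against 53.1 and 125 without, a log2 difference of 2.87 and 1.65. Vector, labelled day and possibly restimulation differ together here and cannot be told apart.

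The count of members at least 2-fold apart was 4 in WT Th2 (17.7% of genes), 5 in STAT4 KO Th1 (13.5%), 5 in STAT6 KO Th2 (13.6%) and 2 in WT Th1 against replicate 1 (17.6%) or 4 against replicate 2 (40.0%). Nkg7 differed by -0.18 to -0.95 and Srgn by -0.47 to -1.22. The WT Th1 replicates themselves differed by at least 2-fold in 3 members (25.6% of genes), all higher in replicate 2: Gzma by 2.20, Prf1 by 1.55 and Gzmb by 1.22.

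Other granzymes were low. Gzmk, a tryptase, was 12.2 FPKM in the WT library with T-bet vector, 1.16 in the STAT4 KO one, and at most 0.71 elsewhere. Gzmm was 5.91 and 5.82 in these libraries and 0.210 to 3.36 elsewhere. Gzmd and Gzme reached 1.30 and 3.16 FPKM in WT cells with the T-bet vector, and Gzmf, Gzmg and Gzmn stayed at or below 0.16. Of these 7 genes 3 were tested and none was called in any contrast of the additive fit, with or without the term. Gzmb, which lies in the same cluster as Gzmd and Gzme, was 273 FPKM in WT cells with the T-bet vector against 395 with the control vector.

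Among 8 genes of granzyme processing and sorting 7 were tested. Cst7, cystatin F, an inhibitor of the cathepsins that activate granzymes, was higher in Th2 cells (2.19 ± 0.34, adjusted p = 0.0128), at 267 FPKM in WT Th2 and 44.9 and 59.8 in WT Th1. With the term Cst7 was also lower in STAT6 KO (-1.69 ± 0.31, adjusted p = 0.0484). Igf2r, the receptor that sorts granzymes to granules, was lower in Th2 (-1.53 ± 0.20, adjusted p = 0.00717) and higher in STAT6 KO (1.21 ± 0.19, adjusted p = 0.0258). Its reads cannot be told from those of an antisense transcript, as counting by strand is not given. Ctsc, which activates granzymes, was 6.46 to 46.8 FPKM and was not called in any contrast.

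Of 12 genes of granule exocytosis 10 reached 1 FPKM in all 14 libraries, Cd63 did in 2, and Vamp7 was listed at 0 in all. Of the 12, 11 were tested, and without the term 1 was called: Cd63 was higher with GATA3 (1.52 ± 0.17, adjusted p = 0.00473), though at only 2.12 and 2.40 FPKM. Rab27a (12.9 to 25.6 FPKM) and Lamp1 (40.3 to 75.3) varied less than Lyst (2.54 to 24.2), Stx11 (7.06 to 54.6) and Sytl2 (1.97 to 15.1), and Unc13d was at 11.6 to 42.3 FPKM. With the term Unc13d, the Munc13-4 priming factor, was lower in Th2 cells (-0.61 ± 0.10, adjusted p = 0.0239) and higher with GATA3 (0.65 ± 0.10, adjusted p = 0.0297).

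Of the 4 serpins that inhibit granzymes, Serpinb9b was called, higher with GATA3 (1.76 ± 0.29, adjusted p = 0.0268), at 2.21 and 3.78 FPKM. Serpinb9, the inhibitor of granzyme B, was highest in the Th1 vector libraries other than STAT4 KO control vector: 126 and 156 FPKM in WT and 85.8 in STAT4 KO with T-bet, against 30.6. Serpinb6b was 112 and 185, then 143 against 34.4, in the same order. Neither was called in any contrast. Of the death ligands, Fasl was 47.7 to 160 and Tnfsf10 was 0.513 to 12.1 FPKM, and neither was called.

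Among 9 regulators 8 were tested, and 4 were lower in Th2 cells, as Nkg7 and Ctsw were: Tbx21 (-4.40 ± 0.25, adjusted p = 1.76e-04), Hopx (-4.0 ± 0.52, 0.00717), Runx3 (-2.54 ± 0.46, 0.0237) and Eomes (-1.31 ± 0.28, 0.0446). Eomes lost its call with the term. In STAT4 KO cells Eomes (-1.56 ± 0.25, adjusted p = 0.0365) and Hopx (-2.80 ± 0.48, 0.0431) were lower, and with the term Tbx21 also was (-0.83 ± 0.11, 0.0266). In STAT6 KO cells Tbx21 was higher (3.31 ± 0.24, adjusted p = 8.68e-04). Eomes, the other T-box factor of killer cells, was highest in T-bet KO, at 17.1 FPKM against 5.75 and 6.15 in WT Th1. That level rests on 1 library, which stood apart. The T-bet KO estimate for Eomes was not called (1.61 ± 0.38, or 1.34 ± 0.44 with the term).

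Nkg7 and Tbx21 levels can be set side by side. STAT6 KO Th2 cells without a vector had 43.7 FPKM of Tbx21 and 22.3 of Nkg7, and STAT4 KO Th1 cells had 47.9 and 15.6. WT Th1 replicate 1, with 88.4 of Tbx21, had 306 of Nkg7. With the T-bet vector, the STAT4 KO library had 137 FPKM of Tbx21 and 422 of Nkg7, and the WT library 245 and 436. Replicate 2 had 152.9 and 179, more Tbx21 but less Nkg7 than that STAT4 KO library. Control vector cells had 61.0 and 158 (WT Th1), 35.1 and 8.41 (STAT4 KO), 2.43 and 1.47 (WT Th2), and 40.4 and 15.0 (STAT6 KO). GATA3 vector cells had 2.08 and 2.09 (WT) and 24.7 and 7.11 (STAT6 KO). Without a vector WT Th2 had 3.61 and 2.64, and T-bet KO 4.18 and 9.50. Prdm1, Runx1, Zeb2 and Id2 were not called in any contrast of either fit.

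Of 10 receptors and partners of killer cells 7 were tested. Klrc1 was lower in Th2 cells (-1.66 ± 0.20, adjusted p = 0.00526), at 0 to 0.55 FPKM in the WT Th2 libraries against 1.85 to 4.61 in WT Th1. With the term 3 more were lower in Th2: Crtam (-2.53), Cd226 (-1.45) and Klrk1 (-0.71). That fit also called Klrc1 lower in STAT4 KO (-0.84, adjusted p = 0.0400). In STAT6 KO it called Cd226 (1.70, adjusted p = 0.0189) and Cd160 (1.47, adjusted p = 0.0498) higher. Cd160 was higher in STAT4 KO cells (2.93 ± 0.33, adjusted p = 0.0114), at 37.5, 52.9 and 88.0 FPKM against 1.82 to 11.7 in WT Th1 libraries. Crtam was 80.1 FPKM in WT and 115 in STAT4 KO when T-bet was supplied, against 20.6 and 8.49 in control vector cells.

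The genes with the pattern most like each member over the 14 libraries were sought among 7281 tested genes that reached 10 FPKM. For Nkg7 they were Ifng (Pearson r = 0.94), Ccl3 (0.93) and Samd3 (0.92). For Ctsw they were Sorl1 (0.89), Ifitm1 (0.87) and Ifng (0.87). Gzmc was most like S100a6 (0.91), Ppcdc (0.90) and Slpi (0.89), and Srgn most like Hint2, 0610007C21Rik and Cd52 (0.94 each).

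Gzmb, Gzma and Prf1 had no partner as close: Snrnp25 for Gzmb (0.83), Gnb2l1 for Gzma (0.81) and Pou6f1 for Prf1 (0.83) were the nearest. In the 12 libraries without WT Th1 replicate 2 and T-bet KO, Nkg7 and Ifng correlated at 0.97 and Gzmb and Gcat at 0.92. Ifng, the Th1 cytokine, was 22.6 FPKM in STAT4 KO cells with the control vector and 1739 with the T-bet vector, against 4074 and 5199 in WT. Among T-bet vector cells, Nkg7 in STAT4 KO was at 96.8% of the WT level and Ifng at 33.5%.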

How the data were processed

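RNA of 14 libraries of mouse helper T cells was used. ChIP samples were not used. Per the labels' protocols, the mirVana kit gave total RNA, and TruSeq libraries were sequenced as single reads. The submitters' processing notes name TopHat, Cufflinks and SICER and build mm9, with no version. The deposited FPKM values, with a counting interval each, were computed by the authors with Cufflinks, per the file headers. The strand setting and annotation were not given in the sources used here. FPKM are not counts, so no count test was run, and fragments per gene were estimated from the interval's width. These intervals cover counting error only.

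Here, 118 entries with a failed estimate were left out, and log2(FPKM + 1) was tested for the 11121 entries that reached 1 FPKM in 2 or more libraries, all 7 members among them. This scale understates changes of low genes. limma 3.58.1 in R 4.3.3 (lmFit, eBayes with trend) fitted all libraries together, with Benjamini-Hochberg adjustment over all tested entries and a threshold of 0.05. The scripts were tested on simulated data. Single libraries were compared by log2 ratios with a 2-fold line and no test. Other settings tried were pseudocounts of 0.1 and 5, filters, scalings, a term for the libraries that stood apart, and leaving out each library.

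The members, the lists of other granule genes and the markers were chosen with earlier results of these data known. All 7 members are named. Genes of the other lists are named where called in a fit, at most 4 a list and contrast, together with each regulator, the knocked-out and vector genes and the 3 most similar genes per member. Others named for their levels (Gzmk, Gzmm, the serpins, Fasl, Rab27a and the like) were chosen after their values were seen.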

Additional observations from a re-analysis of the deposited data

Results flagged for a closer look

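Gzmb differed in opposite directions, by at least 2-fold, between settings of the same contrast in 4 cases. Only the differences of T-bet and GATA3 vector cultures from the others were tested, by the interaction terms of the second limma fit. Each term is set against cultures without a vector and with the control vector pooled. The STAT4 KO ratios of Gzmb in those cultures had opposite signs, so that term does not test their difference. For Gzmb the interaction terms were -1.93 ± 2.47 (STAT4 KO, unadjusted p = 0.460) and 3.60 ± 2.53 (STAT6 KO, unadjusted p = 0.200). Neither was called after adjustment. The other differences between settings were not tested, and each case rests on single libraries. Values are log2 ratios of (FPKM + 1).

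For WT Th2 against WT Th1 the ratio was 4.41 (replicate 1) and 3.19 (replicate 2) without a vector, and -2.06 with the control vector. For STAT4 KO against WT Th1 it was 2.36 and 1.14 without a vector, -3.47 with the control vector and -2.18 with the T-bet vector.

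For STAT6 KO against WT Th2 it was -2.11 without a vector and -1.06 with the control vector, but 2.01 with the GATA3 vector. For the control vector against no vector it was 2.87 and 1.65 in WT Th1 cells, and -2.96 in STAT4 KO Th1, -3.60 in WT Th2 and -2.55 in STAT6 KO Th2 cells. The first 2 cases share the WT Th1 libraries with the last, so the 4 cases are not independent.

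No other member met this criterion, in which every pair with a WT Th1 replicate had to show the direction. It was applied to the members only, so the share of all genes that would meet it is not known. Groups held 1 or 2 libraries and were too small for a check of single libraries against their group.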

How the results depend on the processing

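No fitted estimate of a member named with an unadjusted p under 0.05 reversed under any setting tried. No paired analysis was possible because the RNA groups share fewer than 2 replicate numbers. For lineage, 357 genes were called, against 205 with a filter of 5 FPKM, 760 with the term for the libraries that stood apart and 109 to 931 without 1 library; 2 members were called, against 1 without a filter, 1 with the term and 0 to 2 without 1 library. Ctsw was not called for lineage without a filter on low values (-2.42, adjusted p = 0.0679) or with the term (-2.24, adjusted p = 0.0526). For STAT4 KO, 81 genes were called, against 21 without a filter, 388 with the term and 2 to 495 without 1 library; members 0, and 0 to 2. For T-bet KO, 2 genes were called, against 1 with a pseudocount of 0.1, the 5 FPKM filter, upper-quartile scaling or quantile normalization, 56 without a filter, 98 with the term and 1 to 5154 without 1 library; members 0, and 0 to 2. For STAT6 KO, 107 genes were called, against 59 with the 5 FPKM filter, 301 with the term and 15 to 471 without 1 library; members 0, and 0 to 1. For the T-bet vector, 0 genes were called, against 1 without a filter or with quantile normalization, 2 with the term and 0 to 3 without 1 library; members 0, and 0 to 1. For the GATA3 vector, 117 genes were called, against 59 with a pseudocount of 0.1, 15 with the 5 FPKM filter, 321 without a filter, 322 with the term and 10 to 373 without 1 library; members 0 throughout. The interaction with the T-bet vector had 0 members called, and 0 to 1 without 1 library, and that with the GATA3 vector 0 throughout. The cause of these changes was not tested. Members at least 2-fold apart, summed over all matched pairs, numbered 61, also with WT Th1 replicate 2 in place of replicate 1. Other settings gave 47 (pseudocount 5) to 70 (pseudocount 0.1). Across these pairs 0.575% to 28.3% of tested genes were 2-fold apart with replicate 1, and 0.575% to 40.8% with replicate 2. The equal counts of 61 thus sit on different backgrounds. With 12 groups of 1 library, the spread behind each test comes from departures from additivity and from the WT Th1 replicates, which lie far apart. With the term for the libraries that stood apart, the replicates add no spread, and T-bet KO is set against replicate 2 alone. Low Prf1, Gzmc and Gzma values rest on few fragments.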
